A study of Danio rerio with 9 samples.

Results

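The interactions described here join loci 210 to 500 kb apart in the caudal fin of the zebrafish, Danio rerio. They were chosen by span alone. From each of 3 deposited lists of called interactions, every pair of 10 kb bins whose starts lay from 210 to 500 kb apart was taken. The list of uninjured fins held 3040 such pairs among 28421 interactions. The list at 1 day post amputation (dpa) held 2313 among 18712, and the list at 4 dpa held 4401 among 26988. Together these made 5786 distinct bin pairs, of 43117 distinct pairs of any span.

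Contacts were measured by HiCAR. In this assay the transposase Tn5 marks open chromatin in cross-linked nuclei with an adaptor, and the adaptor is joined to CviQI-cut DNA ends close by, so that each molecule links an accessible site to DNA near it in space. The fish were wild type adults of the outbred Ekkwill strain, 6 to 8 months old, and their fins had been cut at 50% of their length. Clips came from fins just amputated (0 dpa, called uninjured here) and from fins at 1 and at 4 dpa, with 3 pools per time point and 10 fish in each pool. Each pool is bulk tissue of many fish and many cell types, so a contact present in more cells and a contact that is stronger per cell cannot be told apart. The lists hold no gene values, so the tissue was not checked against marker genes, and no gene is named. The time points set regenerating fins beside uninjured ones.

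As background, contacts over such distances are those that can join a promoter to an enhancer lying beyond neighbouring genes, or the borders of a chromatin domain to each other. Cohesin is thought to form many of them by drawing out a loop of chromatin until it meets bound CTCF. After amputation a zebrafish fin closes the wound with epidermis and forms a blastema, a mass of proliferating cells that rebuilds the fin. Enhancers that become active in this setting, such as one near the leptin gene lepb, are known from zebrafish.

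Each list gives a contact count for a pair, the count expected under the authors' background model, and a false discovery rate (FDR). Pairs with a count under 12 are in none of the lists, so a pair that was not called has no value. Each time point has 1 list without replicate values. No spread between pools could be measured and no test between times was possible, so all comparisons below are between lists. The intervals given are at the 95% level, cover counting error only and treat called pairs as independent, which neighbouring pairs are not.

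Interactions of 210 to 500 kb were fewer at 1 dpa and more numerous at 4 dpa than in uninjured fins. There were 0.761 times as many at 1 dpa and 1.45 times as many at 4 dpa, while the whole lists had 0.658 and 0.950 times as many interactions. Their share of the list went from 10.7% (10.3 to 11.1) at 0 dpa to 12.4% (11.9 to 12.8) at 1 dpa and 16.3% (15.9 to 16.8) at 4 dpa. In the class below, 110 to 200 kb, the 4 dpa list held 1.20 times as many as the 0 dpa list, and in the class above, 510 kb to 1 Mb, 1.32 times. The direction at 1 dpa turned when the lists were cut to equal length by FDR: 1.09 times as many were then found at 1 dpa, and 1.45 times as many at 4 dpa.

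**Figure D1:**
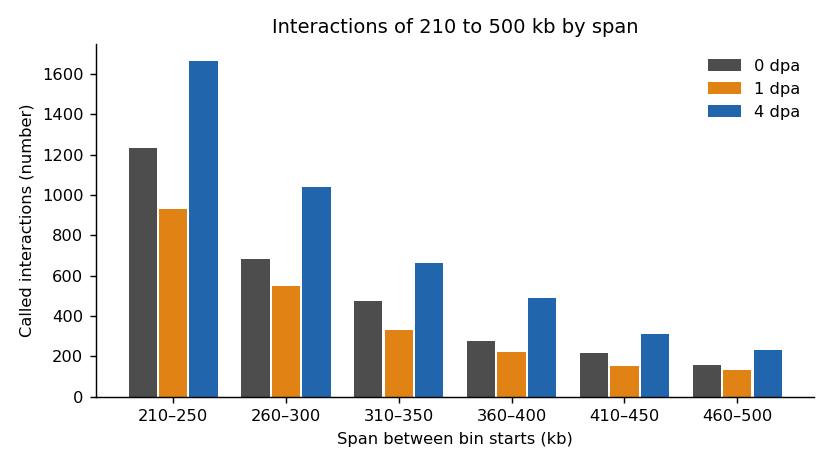
Number of called interactions (vertical axis) in 6 span classes from 210 to 500 kb (horizontal axis), 1 bar per list. At 4 dpa the bar is the highest in every class, from 1666 interactions at 210 to 250 kb down to 230 at 460 to 500 kb, and at 1 dpa it is the lowest.

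The same order held within the range. From 210 to 250 kb there were 1232, 929 and 1666 interactions at 0, 1 and 4 dpa. From 460 to 500 kb there were 156, 131 and 230. The ratio of 4 to 0 dpa lay between 1.35 and 1.77 in the 6 classes, highest at 360 to 400 kb, and that of 1 to 0 dpa between 0.693 and 0.840. The median span was 270 kb at 0 and 1 dpa and 280 kb at 4 dpa.

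The order was also shared by most chromosomes. All 25 chromosomes had more of these interactions at 4 dpa than at 0 dpa. The ratio was lowest on chromosome 20, at 1.29, and highest on chromosome 25, at 1.79. At 1 dpa 24 of 25 had fewer, with chromosome 22 the exception at 92 against 91. Taken as a share of each chromosome's list, however, this length was higher than at 0 dpa on 24 of 25 chromosomes at 1 dpa, all but chromosome 1, and on 25 of 25 at 4 dpa. Chromosomes of a list share its pools and depth and are not replicates. The part that this span range took of a chromosome's list differed more between chromosomes than between times. At 4 dpa it ran from 9.01% on chromosome 4 to 26.0% on chromosome 18, and chromosomes 18 and 13 led in uninjured fins too, with 17.8% and 18.8%.

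These interactions lay close to the lower limit of calling. Their median count was 16 at 0 and 1 dpa and 17 at 4 dpa, against 29, 26 and 28 for interactions of any span. Counts of 12 to 14 made up 33.7%, 33.6% and 30.2% of them at 0, 1 and 4 dpa. The median expected count was 2.61, 2.55 and 2.86, and the median of observed over expected was 6.39, 6.47 and 5.85. At the lower edge of the range, pairs of 200 kb (outside) had a median observed over expected of 5.38, 5.33 and 4.74 at the 3 times and pairs of 210 kb (inside) 5.51, 5.60 and 4.86. At the upper edge, pairs of 500 kb (inside) had 8.42, 9.43 and 8.46 and pairs of 510 kb (outside) 9.56, 9.68 and 8.39. The ratio thus rose with span across the range, where the expected count falls and the minimum count stays the same.

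The authors had grouped neighbouring called pairs into clusters, and most interactions of this length, like most of any span, came in such patches. At 0 dpa the 3040 pairs belonged to 1160 clusters, at 1 dpa the 2313 to 996, and at 4 dpa the 4401 to 1517. Counted as clusters, the difference between times was smaller than counted as pairs. Patches with at least 5 pairs of this length numbered 166, 108 and 259, and those with at least 10 numbered 44, 24 and 71. Pairs with no called neighbour, the singletons, made up 17.1%, 19.8% and 12.7%, against 16.8%, 19.3% and 15.9% over all spans. At 0 and 1 dpa these shares were near that background. Singletons had a higher median observed over expected (8.04, 7.86 and 6.99) than pairs of the clusters typed by the authors as sharp peaks (5.97, 6.05 and 5.53). The pairs of broad peaks lay between, at 6.41, 6.42 and 6.08. Singletons had to pass a stricter FDR, since none in the lists had one above 0.0001.

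The largest patches were the same stretches of chromosomes 12 and 13 at more than a single time. On chromosome 13, bins of chr13:24820001-24940000 met bins of chr13:25150001-25220000 in the largest patch at 4 dpa, with 33 called pairs. In that rectangle of 84 bin pairs, 25 pairs were called at 0 dpa and 19 at 1 dpa. The rectangle is the outline of the 4 dpa patch, and an outline favours the list that it was drawn from. In the outline of the 0 dpa patch, of 50 bin pairs, 25, 18 and 26 pairs were called at 0, 1 and 4 dpa. On chromosome 12, a patch joined chr12:34450001-34490000 to chr12:34670001-34780000 and held 24 of 44 possible pairs at 0 dpa, the most in that list. There, 19 pairs were called at 1 dpa and 21 at 4 dpa, and the highest observed over expected count was 15.4, 12.1 and 12.4 at 0, 1 and 4 dpa. In the outline of the 4 dpa patch, of 60 bin pairs, 26, 19 and 25 pairs were called. A patch on chromosome 18, joining chr18:24560001-24630000 to chr18:24910001-24950000, had 19, 15 and 17 called pairs in its 0 dpa outline. Of the 3 largest patches at 4 dpa, only that of chromosome 12 between chr12:26690001-26800000 and chr12:26980001-27030000 had few calls earlier, with 14 pairs at 0 dpa, 11 at 1 dpa and 29 at 4 dpa. These counts are from its 4 dpa outline. Its highest observed over expected count did not follow: it was 10.6, 10.6 and 9.72.

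Most contacts of uninjured fins at this length were also called in regenerating fins. A counterpart is a called pair in the other list with both anchors within 1 bin. Of the 3040 interactions at 0 dpa, 2301 (75.7%) had counterparts at both later times, against 64.9% over all spans, and 255 (8.39%, 7.43 to 9.43) had none at either, against 16.8%. At 1 dpa 638 (21.0%, with 29.0% over all spans) lacked a counterpart, and at 4 dpa 356 (11.7%, with 22.9%) did. These low shares were not particular to this length. At 110 to 200 kb they were 17.9% at 1 dpa and 11.1% at 4 dpa, and at 510 kb to 1 Mb 27.8% and 21.0%. The highest were those of 20 to 50 kb, at 40.1% and 34.8%. Of the 2313 at 1 dpa, 208 (8.99%, with 14.2% over all spans) lacked one at 4 dpa, and 1942 (84.0%, with 80.9%) had counterparts at both other times. Of the 2402 with a counterpart at 1 dpa, 21 had one only outside the span range, and of the 2684 with one at 4 dpa, 15 did.

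In the other direction, a larger share of contacts of this length than of all contacts at 4 dpa lacked an uninjured counterpart, a difference between classes of a single list that was not tested. At 4 dpa 1201 interactions (27.3%, 26.0 to 28.6) had no counterpart at 0 dpa, against 20.5% over all spans, 20.7% at 110 to 200 kb and 31.2% at 510 kb to 1 Mb. At 1 dpa 280 (12.1%, 10.8 to 13.5) had none, against 11.5% over all spans, a share near that background. Of the 4 dpa interactions, 928 (21.1%) had no counterpart at either other time, where 15.9% of all spans had none. Another 273 (6.20%, with 4.58% over all spans) had 1 at 1 dpa only, and the corresponding count from the 1 dpa list was 163 (7.05%, with 4.86%). Of the other 4 dpa interactions, 530 had 1 at 0 dpa only (13.1% over all spans), and 2670 (60.7%, with 66.5%) had both. Without a 1 dpa counterpart were 1458 (33.1%, with 28.9% over all spans). Counted as clusters, 39.2% of those at 4 dpa had no pair with a 0 dpa counterpart, against 31.0% over all spans, and 19.4% of those at 0 dpa had no 4 dpa counterpart, against 35.0%. Of the clusters at 1 dpa, 18.7% had no 0 dpa counterpart (19.0% over all spans) and 15.4% no 4 dpa counterpart (23.0%). Without a 1 dpa counterpart were 32.6% of clusters at 0 dpa (42.7% over all spans) and 45.9% at 4 dpa (41.7%). All 25 chromosomes had a larger share without a counterpart at 4 dpa than in the reverse direction, with chromosome 23 highest at 45.3% and chromosome 22 lowest at 17.1%. All 25 also had more of these interactions at 4 dpa than at 0 dpa. The part of these numbers in the shares was not tested.

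**Figure D2:**
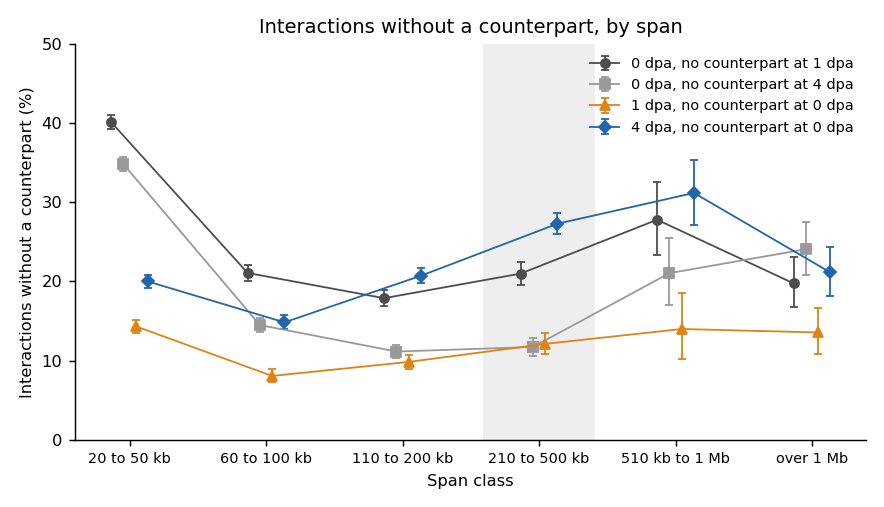
Share of interactions without a counterpart (vertical axis, percent) in 6 span classes (horizontal axis), with exact binomial intervals for counting error; the grey band marks 210 to 500 kb. In the band, the 4 dpa interactions without a 0 dpa counterpart (27.3%) lie above the 0 dpa interactions without a 4 dpa counterpart (11.7%), the reverse of their order at 20 to 50 kb. The 4 dpa list held more interactions than the 0 dpa list in the band and fewer at 20 to 50 kb.

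Interactions without a counterpart were mainly those with few counts. Among 4 dpa interactions with counts of 12 to 14, 38.8% had no 0 dpa counterpart, a share near the 39.0% over all spans at those counts. The share was 32.4% at counts of 15 to 19, against 29.1%. At counts of at least 20 and below 30, 117 of 979 lacked one, against 19.1% over all spans, and at 30 or more 6 of 358 (1.68%), against 14.6%. Among 0 dpa interactions with counts of at least 30, 0 of 336 lacked a 1 dpa counterpart and 0 of 336 a 4 dpa one. That allows a share of up to about 0.893%, an approximate 1-sided limit taken as 3 over the number of interactions. Over all spans, 29.8% and 25.7% of the 0 dpa interactions with such counts lacked one. Pairs of equal count differ in expected count between span classes. The 4 dpa pairs without a 0 dpa counterpart had a median count of 15, and those with one had 18. The part of the count limit in these differences was not tested.

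**Figure D3:**
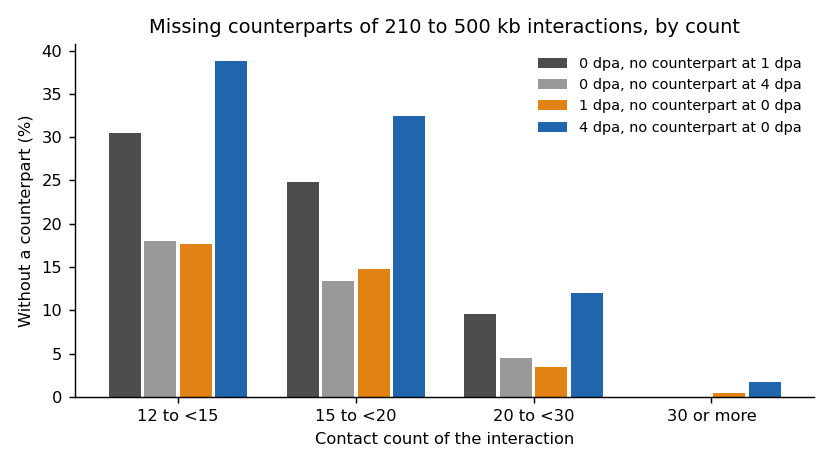
Share of 210 to 500 kb interactions without a counterpart (vertical axis, percent) by the contact count of the interaction (horizontal axis), 1 bar per comparison. The share falls from 38.8% at counts of 12 to 14 to 1.68% at 30 or more for 4 dpa against 0 dpa, and is 0 at 30 or more for 0 dpa against both later times.

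Many interactions without a counterpart had a called contact of the other time nearby. Of the 1201 at 4 dpa, 317 (26.4%) had a 0 dpa contact with the farther anchor 2 bins away, 285 (23.7%) 3 to 5 bins away and 410 (34.1%) 6 to 20 bins away. For 189 (15.7%) there was none within 20 bins. At 0 dpa, 240 had both of their anchor bins in use for another contact, 599 (49.9%) had 1 in use and 362 (30.1%) had neither. Of these 1201, 212 lay in a cluster in which another pair did have a 0 dpa counterpart. The shares in this paragraph were not taken over all spans, so they cannot be called particular to this length.

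Of the 958 clusters at 4 dpa with more than a single called pair, 294 (30.7%) had no pair with a 0 dpa counterpart. For such clusters the share over all spans was not taken, so this value cannot be called particular to this length. Of the 259 clusters at 4 dpa with at least 5 pairs of this length, 9 (3.47%) had none, against 29 of 1441 clusters of that size (2.01%) over all spans. In reverse, 1 of the 166 at 0 dpa (0.602%) had no 4 dpa counterpart, against 36 of 1495 (2.41%). The patches named next were picked with their values known. The largest of the 9, on chromosome 7 between chr7:39740001-39770000 and chr7:40010001-40050000, had 0 called pairs at 0 dpa, 5 at 1 dpa and 8 at 4 dpa in 12 bin pairs. A patch on chromosome 2, between chr2:39800001-39850000 and chr2:40130001-40150000, had 0, 3 and 7 pairs, with a highest observed over expected count of 7.20 at 1 dpa and 10.3 at 4 dpa. At the start of chromosome 4, chr4:390001-410000 met chr4:680001-720000 in 0, 5 and 7 pairs. These 3 patches were thus called at both later times and not at 0 dpa. Each shared an anchor bin with a contact of this length called at all times, whose other anchor lay a few bins outside the patch. The 3 patches thus lay beside contacts already called at 0 dpa. In the reverse direction, chr21:23090001-23130000 and chr21:23330001-23350000 were joined by 5 pairs at 0 dpa, 2 at 1 dpa and 0 at 4 dpa. A patch of chromosome 1, between chr1:26110001-26150000 and chr1:26370001-26400000, had 7 pairs at 0 dpa, 0 at 1 dpa and 3 at 4 dpa. This chromosome 1 patch also shared an anchor bin with a contact called at all times, whose other anchor lay a few bins outside it. The highest count at 0 dpa was 19 in the chromosome 21 patch and 18 in the chromosome 1 patch. At 4 dpa it was 23, 28 and 20 in the patches of chromosomes 7, 2 and 4.

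Pairs named from each set of calls are those with the highest observed over expected count among pairs with a count of at least 20. Without an uninjured counterpart, these were between 220 and 490 kb long. Among those called at both 1 and 4 dpa, the pair of chr16:290001-300000 and chr16:780001-790000 was 9.91 times the expected count at 1 dpa (15 counts, 5.55 to 16.4) and 14.2 times at 4 dpa (23 counts, 8.98 to 21.3). The pair of chr17:40950001-40960000 and chr17:41320001-41330000 had 25 counts at 1 dpa and 36 at 4 dpa, and its cluster grew from 4 to 11 called pairs. The pair of chr19:2480001-2490000 and chr19:2700001-2710000 had 20 and 22 counts, 13.1 and 12.8 times those expected. The pair of chr8:9170001-9180000 and chr8:9630001-9640000 had 12 and 21. Of these 4, only the chromosome 17 contact lay in a cluster of more than 2 pairs.

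The strongest pairs called at 4 dpa only had called neighbours. The pair of chr3:45850001-45860000 and chr3:46260001-46270000 had 26 counts, 11.9 times the expected count (7.79 to 17.5). The pair of chr15:2050001-2060000 and chr15:2380001-2390000 had 20 counts, also 11.9 times. On chromosome 13, chr13:46200001-46210000 met chr13:46680001-46690000 with 20 counts and chr13:28900001-28910000 met chr13:29230001-29240000 with 24. All 4 lay in clusters of 2 to 4 called pairs. The pair with 20 counts on chromosome 13 shared its left anchor with a contact called at all times. The right anchor of that contact lay just beyond the limit of 1 bin for a counterpart. At 1 dpa 117 pairs (5.06%, with 6.69% over all spans) were called at that time only, and 3 of the 4 strongest were singletons, among them chr9:18250001-18260000 with chr9:18700001-18710000 (24 counts, 14.0 times) and chr24:1300001-1310000 with chr24:1550001-1560000 (32 counts, 8.92 times).

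The strongest contacts called only in uninjured fins were all singletons. The pair of chr20:49100001-49110000 and chr20:49420001-49430000 had 22 counts, 14.3 times the expected count (8.98 to 21.7). The pair of chr10:24780001-24790000 and chr10:25110001-25120000 had 29 counts, the highest count in that set. The pairs of chr13:7500001-7510000 with chr13:7720001-7730000 and of chr9:26100001-26110000 with chr9:26370001-26380000 had 27 and 20. The chromosome 9 pair shared its left anchor with a contact called at all times. The right anchor of that contact lay just beyond the limit of 1 bin for a counterpart. Of all 255 pairs called only at 0 dpa, 123 (48.2%) were singletons, against 268 of 928 (28.9%) called only at 4 dpa and 9.82% of the 0 dpa pairs with counterparts at both later times.

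Contacts missing at a single later time were also counted. There were 383 pairs (12.6%, with 12.2% over all spans) of the 0 dpa list with a counterpart at 4 dpa and none at 1 dpa, of which 32.4% were singletons. The strongest, chr13:47270001-47280000 with chr13:47540001-47550000, had 24 counts at 0 dpa and 15 at 4 dpa, 17.3 and 9.78 times the expected count. The pairs of chr23:39330001-39340000 with chr23:39740001-39750000 and of chr7:70250001-70260000 with chr7:70580001-70590000 had 21 and 26 counts at 0 dpa and 14 and 16 at 4 dpa. Another 101 pairs (3.32%, with 6.09%; 91 or 3.93% of the 1 dpa list, with 7.52%) had a counterpart at 1 dpa and none at 4 dpa, led by chr8:910001-920000 with chr8:1170001-1180000 at 29 and 19 counts. Next came chr25:34110001-34120000 with chr25:34340001-34350000 at 28 and 21.

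Contacts called in identical bins kept a similar strength. At all 3 times, 1366 pairs were called in the same bins, 44.9% of the 0 dpa, 59.1% of the 1 dpa and 31.0% of the 4 dpa interactions of this length. Over all spans, 10726 such pairs made up 37.7%, 57.3% and 39.7%. Their median observed over expected count was 7.97 at 0 dpa, 7.26 at 1 dpa and 7.71 at 4 dpa, on median counts of 21, 19 and 22.5. The highest of the 3 values was less than 1.5 times the lowest in 911 of them (66.7%). It was at 0 dpa in 588 pairs, at 1 dpa in 336 and at 4 dpa in 442. These spreads and times of the highest value were not taken over all spans, so they cannot be called particular to this length. Only pairs called each time have 3 values, so pairs that changed much may be missing here.

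**Figure D4:**
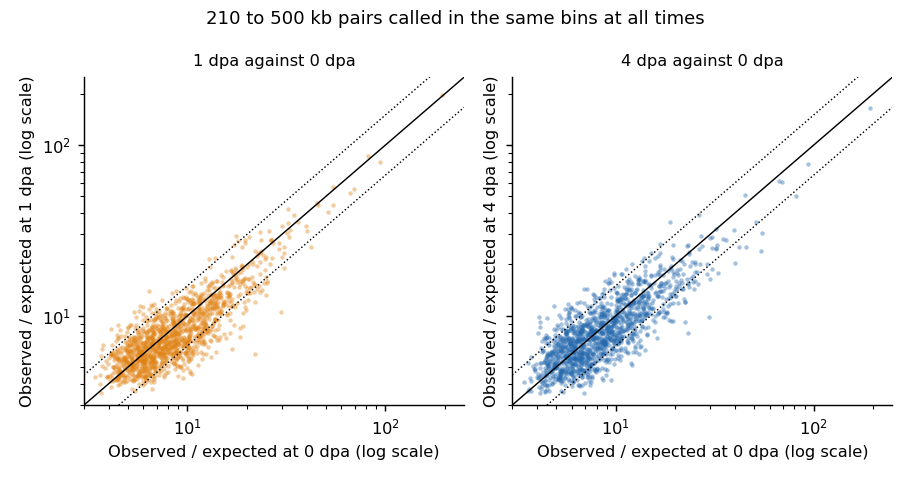
Observed over expected count at 1 dpa (left, vertical axis) and 4 dpa (right, vertical axis) against that at 0 dpa (horizontal axis), all log scales, 1 point for each of the 1366 pairs called in the same bins at all times. The solid line marks equal values and the dotted lines 1.5-fold; most points lie between the dotted lines.

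Pairs that were weaker later outnumbered those that were stronger, but this depended on the scaling. The comparisons of 1 and 4 dpa share the 0 dpa list. Of 1588 pairs called in the same bins at 0 and 1 dpa, 55 (3.46%, with 1.74% over all spans) were at least 1.5-fold higher in observed over expected at 1 dpa and 163 (10.3%, with 6.87%) at least 1.5-fold lower. Of 2044 shared with 4 dpa, 103 (5.04%, with 1.93%) were higher at 4 dpa and 189 (9.25%, with 9.90%) lower. From 1 to 4 dpa, of 1702 shared pairs, 145 (8.52%, with 3.24%) were higher and 103 (6.05%, with 5.76%) lower. Pairs of this length have lower counts than those of all spans, and counting error spreads ratios of low counts more. Its part in these shares was not tested. Intervals lay above 1 for 6 and below 1 for 46 of the 1588 pairs, and for 20 and 55 of the 2044. For the 1702 they did for 29 and 23. Over all spans, intervals lay above and below 1 for 44 and 420 of 13312 pairs at 1 dpa. They did for 65 and 929 of 15730 at 4 dpa, and for 118 and 340 of 12688 from 1 to 4 dpa. Higher counts narrow an interval, so these numbers are not of like precision. The median ratio was 0.944 at 1 dpa and 0.954 at 4 dpa, where pairs of all spans had 0.944 and 0.899. With ratios centred on the all-span median, the split at 1 dpa was 85 higher to 102 lower. At 4 dpa it was 201 to 92. Counts were also scaled by each list's summed count over the pairs of any span called in the same bins at all times. With these scaled counts, 119 were higher and 88 lower at 1 dpa, and 171 higher and 116 lower at 4 dpa. At this length the median change from 0 to 4 dpa was 1.12-fold for the expected count of a pair and 1.07-fold for its count. For the shortest pairs, of 20 to 50 kb, these values were 1.25 and 1.09.

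Among pairs called at all times, those named here had the highest observed over expected count at their lowest time. The pair of chr7:5200001-5210000 and chr7:5560001-5570000 had 452 counts at 0 dpa, 399 at 1 dpa and 362 at 4 dpa, or 193, 198 and 164 times the expected count. It had the highest count of all interactions of any span in each list. On chromosome 12, chr12:43770001-43780000 met chr12:44060001-44070000 with 126, 107 and 109 counts, and chr12:43730001-43740000 met chr12:43970001-43980000 with 111, 83 and 106. On chromosome 22, chr22:330001-340000 met chr22:750001-760000 with 180, 133 and 175 counts. On chromosome 4, chr4:23240001-23250000 met chr4:23620001-23630000 with 114, 122 and 79 counts, a 4 over 0 dpa ratio in observed over expected of 0.619 (0.459 to 0.832). On chromosome 8, chr8:10001-20000 met chr8:420001-430000 with 87, 86 and 99. Real proximity and an order of sequence in the Ekkwill genome that differs from the assembly cannot be told apart for such pairs.

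The largest rises of single pairs are given with the other pairs of their 0 dpa cluster. Of all same-bin pairs of this length, 40.7% were higher at 1 dpa and 42.8% at 4 dpa than at 0 dpa. Over all spans these shares were 39.6% and 30.7%. The intervals of pairs chosen for a large change are not adjusted for that choice. The largest rise to 4 dpa lay on chromosome 12, between chr12:23420001-23430000 and chr12:23640001-23650000, with 14, 29 and 41 counts at 0, 1 and 4 dpa. Its ratio was 2.05 (1.05 to 4.21) at 1 dpa and 2.42 (1.29 to 4.80) at 4 dpa. Of the other 4 pairs of its 0 dpa cluster called in the same bins at 4 dpa, 3 were higher as well. On chromosome 21, the pair of chr21:17670001-17680000 and chr21:17940001-17950000 went from 13 to 20 and 36 counts, a ratio at 4 dpa of 2.36 (1.22 to 4.84), while 1 of 3 other pairs of its cluster was higher. In the chromosome 12 patch with the most pairs at 0 dpa, the pair of chr12:34450001-34460000 and chr12:34760001-34770000 had 12, 13 and 28 counts, while 8 of 18 other pairs were higher at 4 dpa. On chromosome 10, chr10:11410001-11420000 and chr10:11750001-11760000 had 12, 13 and 29 counts, while 1 of 5 other pairs was higher.

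At 1 dpa the largest rise was on chromosome 12, between chr12:10760001-10770000 and chr12:11150001-11160000. It had 12, 26 and 18 counts, a ratio at 1 dpa of 2.19 (1.07 to 4.76). The pair of chr13:24910001-24920000 and chr13:25170001-25180000, in the large patch of chromosome 13, had 14, 29 and 16 counts, and 7 of 13 other pairs of the patch were higher at 1 dpa. The pair of chr16:26850001-26860000 and chr16:27100001-27110000 had 16, 32 and 24 counts, and 4 of 11 others were higher. The last 2 pairs had ratios of 1.98 and 1.97 at 1 dpa.

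The largest falls were mostly of singletons with high ratios at 0 dpa. The pair of chr11:44230001-44240000 and chr11:44530001-44540000 had 43, 16 and 16 counts, or 29.7, 10.5 and 9.90 times the expected count. The pair of chr2:8260001-8270000 and chr2:8580001-8590000 had 41, 14 and 27 counts, and that of chr8:53970001-53980000 and chr8:54210001-54220000 had 39, 16 and 23. Low only at 4 dpa were chr23:41980001-41990000 with chr23:42240001-42250000 (37, 37 and 14 counts) and chr4:76350001-76360000 with chr4:76590001-76600000 (32, 31 and 16). All 5 were singletons at each time, so no neighbouring pair could be compared.

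The other 2 large falls were of pairs inside clusters. On chromosome 7, the pair of chr7:5960001-5970000 and chr7:6430001-6440000 had 46, 12 and 45 counts, and 12 of 15 other pairs of its cluster were lower at 1 dpa too. On chromosome 17, the pair of chr17:37650001-37660000 and chr17:37900001-37910000 had 30, 22 and 15 counts, and 10 of 17 others were lower at 4 dpa. Of all same-bin pairs of this length, 59.3% were lower at 1 dpa and 57.2% at 4 dpa, against 60.4% and 69.3% over all spans.

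Strength was also summed over patches, which narrows its range by construction. These sums, and the patches named for them, were chosen after the lists were seen. Ratios of the sums at both later times rest on the expected counts as deposited. The other scalings, with which the median ratio of single pairs was no longer below 1, were not run for patches. For 108 clusters of 0 dpa with at least 5 pairs of this length called in the same bins at 4 dpa, the 4 over 0 dpa ratio of summed observed over summed expected counts ran from 0.675 to 1.52, with a median of 0.921. It was above 1 in 32 and below in 76. For 806 clusters of any span the median was 0.886. The highest was on chromosome 25, between chr25:32870001-32900000 and chr25:33260001-33300000, where 5 pairs summed to 96 counts at 0 dpa and 164 at 4 dpa, a ratio of 1.52 (1.17 to 1.97), and all 5 were higher. Next came the chromosome 12 patch around the pair named above, with 79 and 134 counts, a ratio of 1.43 (1.08 to 1.91). These were the 2 patches whose interval lay above 1, and 12 (11.1%) had an interval below 1. Over all spans 3 of 806 lay above 1 and 244 (30.3%) below. Pairs of any span have higher counts, and higher counts narrow an interval, so these shares are not of like precision. The lowest, on chromosome 4 between chr4:23240001-23270000 and chr4:23590001-23630000, had 242 and 190 counts, a ratio of 0.675 (0.555 to 0.820). That patch holds the strong chromosome 4 pair described above.

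At 1 dpa, 72 such patches had ratios from 0.702 to 1.20, with a median of 0.878 against 0.905 for 623 clusters of any span. Of these 72, 0 had an interval above 1 and 9 (12.5%) had an interval below 1, against 2 and 107 (17.2%) of the 623. These shares too are not of like precision. A patch of chromosome 7, between chr7:27230001-27260000 and chr7:27500001-27540000, was the lowest, with 159 counts at 0 dpa and 103 at 1 dpa, a ratio of 0.702 (0.543 to 0.905). The patch around the chromosome 7 pair that fell from 46 to 12 counts had 372 and 261 over 14 pairs, a ratio of 0.729 (0.620 to 0.856).

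Anchor bins with many contacts of this length nearly always reached to a single side. The 3 lists used 3497, 2845 and 4784 bins as anchors for them, in the order of time, and 61.6%, 65.4% and 56.9% of these bins anchored only 1. Of the 140, 89 and 223 bins with at least 5, 134, 85 and 207 had all of them on 1 side (95.7%, 95.5% and 92.8%). For contacts of 110 to 200 kb this share was 86.8%, 91.1% and 87.7%, and over all spans 63.7%, 69.2% and 70.3%. Many contacts of such a bin are neighbouring pairs of the same cluster and are not independent. Sides were not counted by cluster, so the part of clustering in these shares was not tested. The 2 directions were about equally common, with 63 bins reaching right and 71 left at 0 dpa, 49 and 36 at 1 dpa, and 107 and 100 at 4 dpa. Rows of contacts from a fixed anchor to a run of bins on 1 side are known in contact maps as stripes. Whether these rows are stripes in the full map was not analysed here.

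The anchors with the most contacts were partly the same bins at each time. The bin chr6:28220001-28230000 anchored 16, 15 and 13 contacts of this length at 0, 1 and 4 dpa, all to its right. The bin chr20:15190001-15200000 had 16, 9 and 12, also all to the right. On chromosome 13, chr13:35460001-35470000 had 11, 12 and 15, all to the left, and on chromosome 23 chr23:28830001-28840000 had 9, 11 and 17, all to the right.

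**Figure D5:**
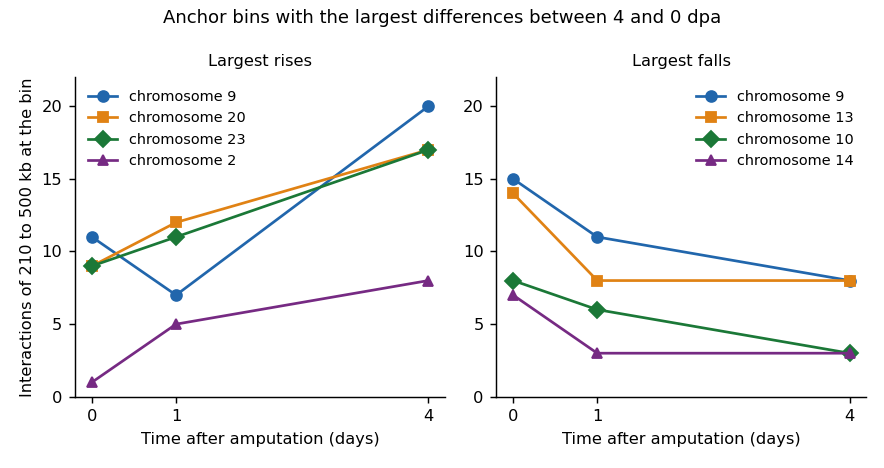
Number of 210 to 500 kb interactions anchored at a bin (vertical axis) at each time (horizontal axis, days after amputation), for the 4 bins with the largest rise (left) and the 4 with the largest fall (right) from 0 to 4 dpa, named by chromosome. The chromosome 9 bin on the left goes from 11 to 7 and 20, and that on the right from 15 to 11 and 8.

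Rises and falls at single anchors were seen in pairs more than in clusters. The bin chr9:46840001-46850000 had 11, 7 and 20 contacts of this length, all to its right, from 5, 4 and 6 clusters. The bin chr20:22470001-22480000 had 9, 12 and 17, from 3, 4 and 3 clusters. With cluster summits alone their rises to 4 dpa of 9 and 8 became 2 and 0, and that of 8 at the chromosome 23 bin became 0. The chromosome 23 rise was also 0 at an FDR of at most 0.0001 and 1 with lists of equal length. At chr2:40130001-40140000, an anchor of the patch of chromosome 2 that was not called at 0 dpa, there were 1, 5 and 8 contacts. Its rise to 4 dpa of 7 was 6 with lists of equal length and 1 with summits alone.

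The largest falls to 4 dpa were of 4 to 7 contacts. The bin chr9:8450001-8460000 had 15, 11 and 8 contacts, all to its left, and chr13:17460001-17470000 had 14, 8 and 8, also to the left. Their falls of 7 and 6 to 4 dpa turned into rises of 1 and 2 with summits alone, and the chromosome 13 fall was 1 with lists of equal length. At an FDR of at most 0.0001 these falls were 4 and 1. The bins chr10:11760001-11770000 and chr14:37540001-37550000 had 8, 6 and 3 and 7, 3 and 3 contacts. The fall of 5 at the former was 2 with lists of equal length and 0 with summits alone, and that of 4 at the latter was 1 with summits alone. The chromosome 10 bin lies next to the right anchor of the chromosome 10 pair that rose from 12 to 29 counts, so that fewer called partners and a stronger pair were found side by side.

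At 1 dpa the largest rise in contacts was 4, at the chromosome 2 bin and at chr17:41320001-41330000 (3, 7 and 8 contacts). The latter anchors the chromosome 17 pair called at 1 and 4 dpa. The bins chr4:390001-400000, an anchor of the chromosome 4 patch not called at 0 dpa, and chr7:54670001-54680000 rose by 3, from 4 to 7 and from 3 to 6. At an FDR of at most 0.0001 these became -1 and 1, and the chromosome 2 rise 1. With summits alone the chromosome 17 rise was 0. With lists of equal length the rises of these 4 bins, of chromosomes 2, 17, 4 and 7, were 4, 5, 4 and 3. Among falls at 1 dpa, the bin of chromosome 20 at 15190001 fell by 7, which became a rise of 1 with lists of equal length. The fall of 6 at the chromosome 13 bin became a rise of 1 with summits alone and a difference of 0 with lists of equal length. Both chr19:28780001-28790000 and chr23:29280001-29290000 had 7, 1 and 4 contacts, and their fall of 6 at 1 dpa was 3 with lists of equal length and 2 with summits alone.

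Counted as bins, most anchors of these contacts were not anchors of shorter ones. In the lists of 0, 1 and 4 dpa, 32.4%, 27.3% and 29.8% of the anchor bins also anchored a contact of at most 200 kb in the same list. Counted as contacts, neither anchor did in 40.9%, 46.6% and 44.1%, 1 did in 40.3%, 39.0% and 41.4%, and both did in 18.8%, 14.3% and 14.5%. These shares were not taken for other span classes. Few contacts were chains of shorter ones. Only 11.9%, 8.34% and 8.18% had their anchors joined through a middle bin by 2 shorter called contacts. For contacts of 110 to 200 kb this was 14.1%, 9.32% and 8.79%.

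The intervals between the anchors were seldom empty of other contacts. The median number of other called pairs lying inside an interval was 8, 5 and 6 at 0, 1 and 4 dpa. None were enclosed by 210, 257 and 339 intervals. Contacts without a counterpart enclosed fewer. The 4 dpa contacts without a 0 dpa counterpart had a median of 4 enclosed pairs and those with one had 8, and 4.83% against 9.44% were joined through a middle bin. The number enclosed moves with the length of a list, which was not tested as a cause.

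Along the genome, contacts of this length occupied more places at 4 dpa, when they were also more numerous. Sorted by their midpoints into windows of 1 Mb, they occupied 628 windows at 0 dpa, 556 at 1 dpa and 721 at 4 dpa, of 787 occupied at any time. At 4 dpa 481 windows held more than at 0 dpa and 156 fewer, and 144 were empty at 0 dpa. At 1 dpa 136 held more and 386 fewer. Windows were not counted over all spans or with equal numbers of contacts. The part of the number of contacts in these differences was not tested. The fullest windows at 4 dpa were also full at 0 dpa, among them chr24:4000001-5000000 with 39, 44 and 46 contacts at 0, 1 and 4 dpa, chr7:6000001-7000000 with 40, 30 and 43 and chr13:35000001-36000000 with 40, 34 and 40. Windows with the largest rise, named after their values were seen, were chr11:43000001-44000000 (10, 8 and 27), chr12:26000001-27000000 (14, 11 and 31) and chr24:13000001-14000000 (15, 11 and 32). The largest fall to 4 dpa was 8, in chr9:8000001-9000000 (21, 14 and 13) and in chr13:49000001-50000000 (17, 6 and 9).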

How the data were processed

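HiCAR interactions were taken from 3 lists, 1 per time point, whose times come from the list names, which match the sample titles. The deposited contact counts of bin pairs were used as they stand. The expected count is a deposited score from the authors' background model. The FDR is the authors' q-value per pair. The deposited −log10 p and cluster size belong to whole clusters of called pairs, and the summit mark to their strongest pairs. Reads were mapped with BWA and coordinates are in danRer11, both per the submitters' processing notes. The sources used here do not give the BWA version, the interaction caller or the handling of the 3 pools per time.

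Python 3.11.15 with pandas 2.3.3, numpy 2.4.6 and scipy 1.17.1 was used. A counterpart is a called pair of any span in another list with both anchor starts within 1 bin. Ratios between times used observed over expected counts of identical bin pairs, with 1.5-fold as the size limit. Intervals are exact at the 95% level (Poisson for a count over its expected count, binomial for a share, conditional binomial for a ratio) and cover counting error only. The limit given for a share of 0 is instead 3 over the number, 1-sided and approximate. Matching and intervals were tested on simulated data. With 1 list per time point no spread between pools, test or p-value was possible, and sequencing depth is unknown. Members, lists and tests were chosen with earlier results of these data known.

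The naming rule covers bin pairs and bins. It took the 6 pairs called at all times with the highest observed over expected count at their lowest time, and the 4 largest rises and falls at each later time. It took the 4 strongest pairs of each set of calls and the 3 largest clusters at each time. It took the 3 anchors with most interactions at each time and the 4 with the largest rise or fall. Named pairs had a count of at least 20, with 1 per cluster. The gene assignment and gene lists that had been planned were not run, since no annotation of danRer11 was used here. Alternatives were stricter FDR and count limits, no singletons, summits, lists of equal length, other span limits, other matching rules and other scalings.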

Additional observations from a re-analysis of the deposited data

How the results depend on the processing

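No paired analysis was possible because each time point has 1 list without replicate values, and for the same reason no replicate could be left out. The alternatives had been listed with earlier results of these data known. The numbers of interactions at 0, 1 and 4 dpa (3040, 2313 and 4401) were 933, 690 and 1337 at a count of at least 20, 1087, 930 and 1409 with summits alone, 1841, 1409 and 2772 at 250 to 450 kb, and 2834 for 4 dpa at an FDR of at most 0.0001. The 4 dpa list held more than the 0 dpa list under all 6 alternatives (1.30 to 1.52 times), and the 1 dpa list fewer (0.737 to 0.856 times) under all but lists of equal length (1.09). These alternatives keep fewer pairs or fewer spans by construction.

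With identical bins required, 725 (1 dpa) and 2357 (4 dpa) interactions had no 0 dpa counterpart, and 1452, 996 and 774 of the 0 dpa list had none at 1 dpa, at 4 dpa or at either. At a count of at least 20 in all lists these 5 counts were 88, 386, 231, 119 and 83. At 250 to 450 kb the first was 183 and the last 3 were 395, 229 and 157. With an FDR of at most 0.0001 for the members only, the last 4 were 636, 389, 224 and 153, and with summits as members those at 4 dpa without a 0 dpa and at 0 dpa without a 1 or a 4 dpa counterpart were 592, 379 and 231. With that FDR in all lists, 726 at 4 dpa had no 0 dpa counterpart, and with lists of equal length 392 at 0 dpa had none at 1 dpa. Anchors within 2 bins, counterparts within the span range and lists without singletons moved none of the 5 counts by over 1.5 times.

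For pairs in the same bins, counts scaled by the pairs shared by all lists gave 119 higher and 88 lower for 1 dpa. For 4 dpa they gave 171 and 116. The median ratios were 1.04 and 1.03 in place of 0.944 and 0.954. Centred ratios gave 85 and 102 for 1 dpa and 201 and 92 for 4 dpa, with medians of 1.00 and 1.06. At counts of at least 20 at both times there were 5 and 43 at 1 dpa and 14 and 72 at 4 dpa, and at 2-fold 2 and 21, and 9 and 18. The direction of the median thus depends on the scaling. Cluster counts and the number of chains kept within 1.5 times. Of the anchors, the 4 minus 0 dpa differences of the bins at 8450001 of chromosome 9 and 17460001 of chromosome 13 turned to 1 and 2 with summits alone, and the 1 minus 0 dpa difference of the latter to 1. That of the chromosome 4 bin at 390001 turned to -1 at an FDR of at most 0.0001, and that of the chromosome 20 bin at 15190001 to 1 with lists of equal length. The causes were not tested. Counts near 12 limit what can be seen: a pair just under it at another time has no value.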
